A study of Mus musculus with 42 samples.

Results

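Potassium channel genes are described here as the 92 autosomal protein-coding genes of the mouse annotation (GENCODE vM21 on mm10) whose symbol starts with Kcn, out of 20807 autosomal protein-coding genes. Both Kcn genes on the X chromosome, Kcnd1 and Kcne1l, were left out. The measure was the position of each gene relative to lamina-associated domains (LADs), the stretches of chromatin that contact the nuclear lamina, mapped by chromatin immunoprecipitation of lamin B1 (LMNB1) and sequencing in liver of wild-type C57Bl/6 mice. All mice had been housed in light/dark cycles and carried no transgene. Non-synchronized (NS) mice were killed on the day before food was withdrawn. The others were fasted for 24 h and given food freely from circadian time 0 (CT0), and were killed at CT0, CT6, CT12, CT18, CT24 or CT30, so every CT group shares the fast, and CT0 is the time of refeeding. Each of the 7 time points has 2 mice, giving 14 libraries named here by time point and replicate. The labels call the mice female in one field and male in another, and the study's methods state male. Ages were not given in the sources used here.

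Potassium channels let potassium ions leave or enter cells along their gradient and so set the resting potential, end action potentials and carry potassium across epithelia. Voltage-gated alpha subunits (Kcna, Kcnb, Kcnc, Kcnd, Kcnh, Kcnq and the silent modifiers Kcnf, Kcng, Kcns and Kcnv) open on depolarization, Kcnj subunits form inward rectifiers, Kcnk subunits form leak channels, and Kcnma, Kcnn, Kcnt and Kcnu subunits respond to calcium, sodium or pH. Kcnab, Kcne, Kcnip and Kcnmb subunits are accessory and do not form a pore by themselves. Many of these genes are used mainly by neurons and muscle, and several of them are among the longer genes of the genome. Chromatin in LADs is as a rule poor in genes and little transcribed. Liver was taken in bulk, so a LAD present in few cells and a weak LAD in all cells cannot be told apart, and the LADs of liver cell types were not separated. Of 10 liver genes (Alb, Ttr and others), 0 had their start site in a LAD in any library, as was the case for 82.9% of all genes.

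The deposited files list each LAD as a start and an end, without a score or a count of reads. The depth behind a LAD is therefore unknown, and values carry no interval for counting error. A library held 86 to 341 LADs that covered 335.3 to 663 Mb. LAD starts lie at regular steps whose length, called the bin size of a library here, ranged from 4 kb (NS replicate 2 and CT0 replicate 2) to 61 kb (NS replicate 1). NS replicate 1 stands apart with the fewest LADs and the smallest coverage, and results that rest on it are given with and without it.

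The start site of 77 of the 92 Kcn genes (83.7%) was outside LADs in all 14 libraries, and 15 Kcn genes (16.3%) had it inside a LAD in at least 1 library. Over all autosomal protein-coding genes the share in at least 1 library was 17.1%. Below, a gene is counted as in a LAD where its start site was, unless its body is named. In 8 or more libraries the start site of 7 Kcn genes (7.61%) was in a LAD, beside 7.48% of all genes. No Kcn gene was in a LAD in all 14 libraries, where 0.875% of all genes were. Without NS replicate 1, 3 Kcn genes were in a LAD in every library, and the share of all genes was not counted for that setting. In 12 or 13 of the 14 libraries it was 4 Kcn genes (4.35%), beside 3.1% of all genes. The Kcn genes as a whole thus lay in LADs about as often as other genes.

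Windows of 250 bases upstream of the RefSeq start (GRCm38.p6) are printed for 6 of the 7 Kcn genes found in LADs in 8 or more libraries, because their content of CG is compared with that of other genes in LADs. Each is read 5′ to 3′ on the strand of the gene, with each CG dinucleotide in capitals. The window of Kcna4 is chr2:107290339-107290588 (+), of Kcnj3 chr2:55435720-55435969 (+), of Kcnd2 chr6:21215096-21215345 (+), of Kcnh8 chr17:52602459-52602708 (+), of Kcnc2 chr10:112270871-112271120 (+) and of Kcnh7 chr2:63184288-63184537 (-). Kcnv1 was the other gene of this group.
Kcna4: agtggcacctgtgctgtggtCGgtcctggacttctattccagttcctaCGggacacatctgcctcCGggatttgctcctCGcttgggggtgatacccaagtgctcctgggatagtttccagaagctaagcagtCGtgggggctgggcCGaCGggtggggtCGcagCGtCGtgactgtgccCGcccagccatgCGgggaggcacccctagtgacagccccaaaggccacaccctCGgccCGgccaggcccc
Kcnj3: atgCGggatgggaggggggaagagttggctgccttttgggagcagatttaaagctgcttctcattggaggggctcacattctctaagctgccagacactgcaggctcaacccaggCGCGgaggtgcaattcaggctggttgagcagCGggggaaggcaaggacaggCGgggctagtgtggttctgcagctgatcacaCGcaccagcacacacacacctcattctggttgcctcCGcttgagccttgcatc
Kcnd2: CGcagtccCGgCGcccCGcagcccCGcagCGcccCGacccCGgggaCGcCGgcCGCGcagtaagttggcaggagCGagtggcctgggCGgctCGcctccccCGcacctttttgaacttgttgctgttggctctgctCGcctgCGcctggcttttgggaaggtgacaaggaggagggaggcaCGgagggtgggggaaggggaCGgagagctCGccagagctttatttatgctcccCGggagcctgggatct
Kcnh8: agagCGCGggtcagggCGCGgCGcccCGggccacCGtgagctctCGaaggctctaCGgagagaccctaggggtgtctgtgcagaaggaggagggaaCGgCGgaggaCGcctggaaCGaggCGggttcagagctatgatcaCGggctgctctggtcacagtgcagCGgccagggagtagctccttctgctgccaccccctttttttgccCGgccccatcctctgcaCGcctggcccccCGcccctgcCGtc
Kcnc2: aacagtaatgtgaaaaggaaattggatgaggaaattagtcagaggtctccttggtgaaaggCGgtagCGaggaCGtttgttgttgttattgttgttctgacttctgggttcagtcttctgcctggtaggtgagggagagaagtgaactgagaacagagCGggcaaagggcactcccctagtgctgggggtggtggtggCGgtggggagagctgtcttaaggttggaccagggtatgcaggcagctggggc
Kcnh7: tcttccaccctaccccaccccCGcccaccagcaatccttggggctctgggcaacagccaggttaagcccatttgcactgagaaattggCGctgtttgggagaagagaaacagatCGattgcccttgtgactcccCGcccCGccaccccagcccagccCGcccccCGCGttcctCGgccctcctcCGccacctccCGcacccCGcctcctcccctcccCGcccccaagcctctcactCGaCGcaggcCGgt

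CG was counted once for both strands, since it reads the same on each. The windows held 22 CG in Kcnd2, 20 in Kcnh8, 16 in Kcnh7, 14 in Kcna4, 7 in Kcnj3 and 5 in Kcnc2, a median of 15. Over all 1170 genes with a window and a start site in a LAD in 8 or more libraries the median was 1 CG, and 32.6% of those windows held none. Over all 15670 windows the median was 11 CG, and 6.76% held none. A RefSeq window was matched for 68 of the 92 Kcn genes. The 56 of them that were never in a LAD had a median of 8 CG, against 13 CG for all genes never in a LAD. In these few windows the Kcn genes that lay in LADs most often thus held more CG than most LAD genes. This count is a description and was not tested.

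The 3 Kcn genes found in LADs most often were Kcnj3, Kcna4 and Kcnv1. Kcnj3 encodes a subunit of the inward rectifiers gated by G proteins. It spans 162 kb at chr2:55435970-55598145 (+), and it lay wholly inside a LAD in 13 of 14 libraries, the exception being NS replicate 1. Where it was inside, the LAD measured 3.01 to 5.19 Mb (median 3.55 Mb) and the nearer border was 823 to 2160 kb from the start site. In NS replicate 1 the nearest LAD was 12187 kb away, so this locus was either deep inside a LAD or far from one.

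Kcna4, a Shaker-type subunit of rapidly inactivating channels, is a short gene of 7.86 kb at chr2:107290639-107298502 (+). It also lay wholly inside a LAD in the same 13 libraries. The nearer border was 42.6 kb from its start site in NS replicate 2 and 1241 kb in CT24 replicate 1, the extremes of the 13 libraries. Kcna4 was therefore closer to the edge of its LAD than Kcnj3 in every library that held both: its smallest margin was 42.6 kb and that of Kcnj3 823 kb.

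Kcnv1 encodes a silent modifier that forms no channel by itself and joins other voltage-gated subunits. It spans 8.64 kb at chr15:45106284-45114920 (-) and was inside a LAD of 4.85 to 9.92 Mb in 13 libraries. The start site was 159 to 3239 kb from the nearer border in those libraries and 696 kb outside the nearest LAD in NS replicate 1. All 3 genes thus had 1 state in the 12 libraries of CT0 to CT30, so they show no difference between circadian times.

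**Figure D1:**
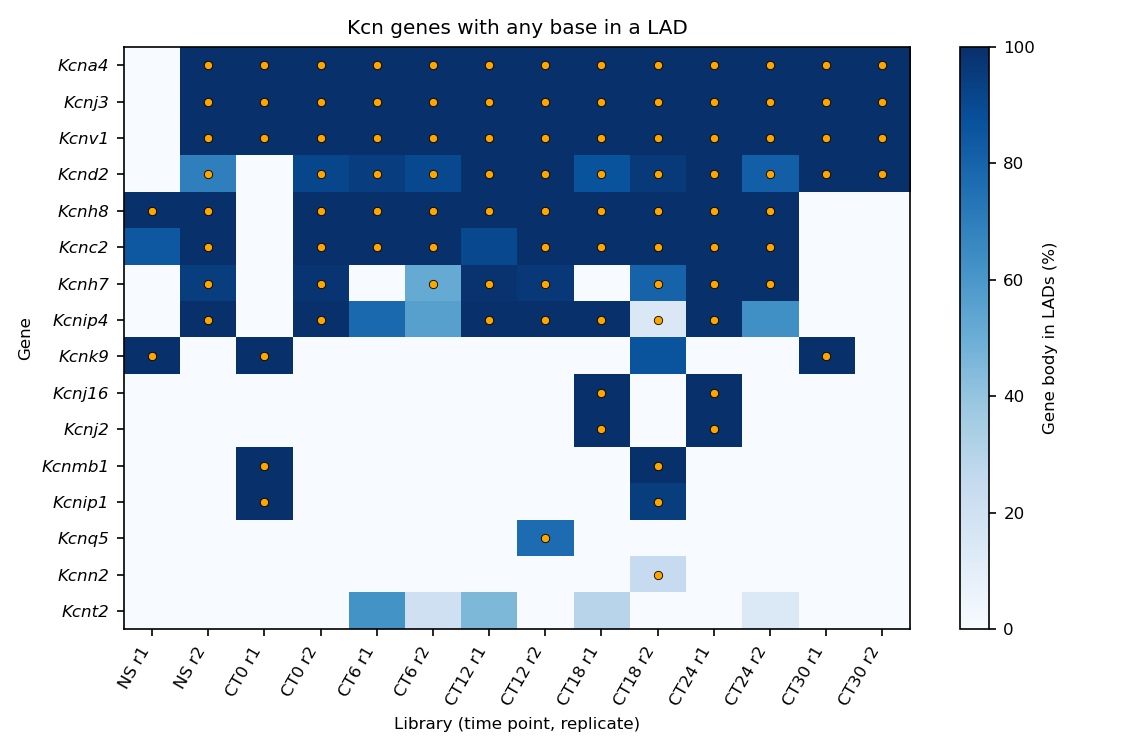
Share of the gene body in LADs (colour, %) for the 16 Kcn genes with any base in a LAD (rows) in the 14 libraries (columns, r1 and r2 are the 2 mice of a time point), with a dot where the start site is in a LAD. Kcna4, Kcnj3 and Kcnv1 are at 100% in 13 libraries, and Kcnt2 has bases in LADs in 5 libraries and its start site in none.

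Kcnd2 encodes a Shal-type subunit of transient outward currents in neurons and heart. It is 514 kb long, at chr6:21215503-21729805 (+), and its start site was in a LAD in 12 libraries, the exceptions being NS replicate 1 and CT0 replicate 1. The share of the gene body in LADs was 0 and 69.3% in the NS mice, 0 and 91.1% at CT0, 94.2% and 90.5% at CT6, 100% and 100% at CT12, 86.4% and 95.8% at CT18, 100% and 81.8% at CT24, and 100% and 100% at CT30. Both CT12 mice and both CT30 mice had the whole gene in a LAD, and all other time points had at least 1 mouse below 100%. The LAD covered the start and ended inside the gene in 7 libraries, 356 to 492 kb from the start site, each time in an intron. In the 5 libraries with the whole gene inside, the LAD ended 542 to 577 kb from the start site, a little beyond the end of the gene, so the LAD border lay around the 3′ part of Kcnd2 in all 12 libraries.

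The other Shal-type gene, Kcnd3, is 222 kb long and was never in a LAD, with a median distance of 5.28 Mb. Kcnip4 encodes one of the calcium-binding partners of Kcnd subunits and, at 1135 kb (chr5:48389502-49524907, -), is the longest Kcn gene. Its start site was in a LAD in 7 libraries: NS replicate 2, CT0 replicate 2, both CT12 mice, both CT18 mice and CT24 replicate 1. In CT6 replicates 1 and 2 and CT24 replicate 2 the LAD lay over the 3′ part only, ending 245, 498 and 421 kb from the start site and leaving 78.4%, 56.1% and 62.9% of the gene inside. In CT18 replicate 2 the reverse was seen: a LAD of 0.528 Mb covered the start site and the first 163 kb, 14.3% of the gene. Kcnip4 was thus split by LAD borders on either side, in 4 libraries, all of them in introns.

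Kcnh7 and Kcnh8 encode ether-a-go-go-type subunits. Kcnh8, 376 kb at chr17:52602709-52979194 (+), was wholly inside a LAD in 11 libraries and wholly outside in CT0 replicate 1 and both CT30 mice. Outside, its start site was 4784 kb from the nearest LAD in CT0 replicate 1 and 1275 and 6783 kb in the CT30 mice. Kcnh8 was 1 of only 2 Kcn genes with the start site inside a LAD in NS replicate 1, the other being Kcnk9. No border fell inside Kcnh8, and the LAD that held it measured 1.03 to 3.82 Mb.

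Kcnh7, 491 kb at chr2:62693414-63184287 (-), was in a LAD in 8 libraries. The share of its body in LADs was 0 and 94.6% in the NS mice, 0 and 97.8% at CT0, 0 and 51.6% at CT6, 98.7% and 96.6% at CT12, 0 and 80.3% at CT18, 100% and 100% at CT24, and 0 and 0 at CT30. At 4 of the 7 time points 1 mouse was thus at 0 and the other at 51.6% or more. The LAD over Kcnh7 was short, 0.561 to 1.19 Mb with a median of 0.905 Mb, and reached past the gene at its 3′ end only in the CT24 mice. The other 6 Kcnh genes, among them Kcnh2, the cardiac repolarizing subunit, were never in a LAD. The closest of these by median distance was Kcnh2 at 4.86 Mb and the farthest Kcnh1 at 42.1 Mb.

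Kcnc2, a Shaw-type subunit known from fast-spiking neurons, spans 196 kb at chr10:112271121-112467024 (+). Its start site was in a LAD in 9 libraries, but within 21.1 to 271 kb of the border. In NS replicate 1 and CT12 replicate 1 the LAD began 29.9 and 18.9 kb inside the gene, so that 84.7% and 90.4% of the body was in the LAD while the start site was not. It was wholly outside in CT0 replicate 1 (717 kb away) and at CT30 (7925 and 7943 kb). The border was thus within 60.1 kb of the Kcnc2 start site, inside or outside, in 6 of the 11 libraries with a LAD over the gene, while the LAD holding the start site had a median length of 2.62 Mb.

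**Figure D2:**
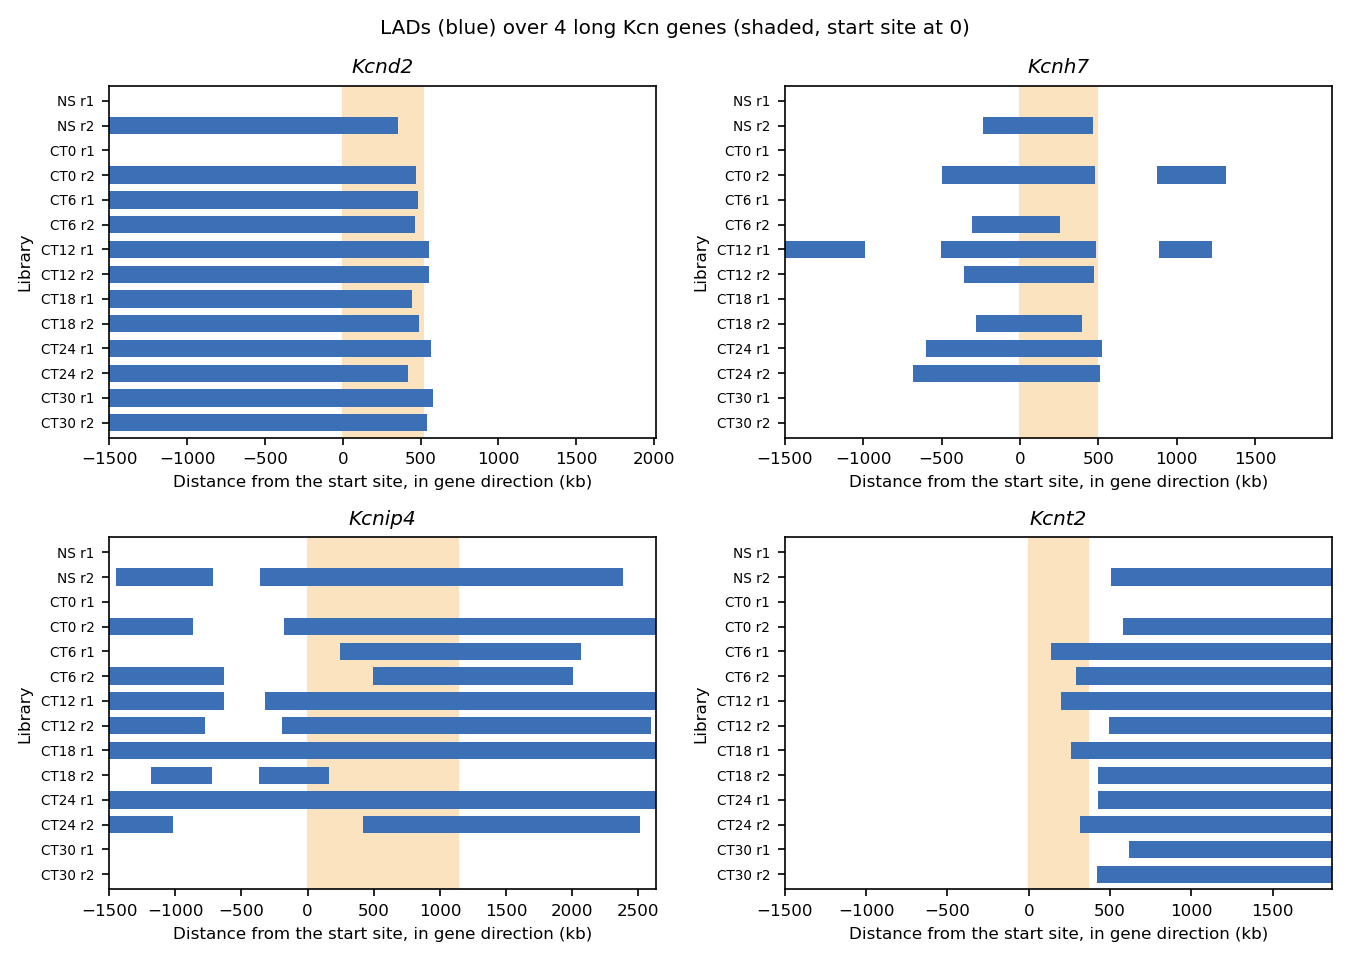
LADs (bars) of the 14 libraries (rows) around Kcnd2, Kcnh7, Kcnip4 and Kcnt2, by distance from the start site in the direction of the gene (kb), with the gene shaded. The border lies near the 3′ end of Kcnd2, the LAD over Kcnh7 (0.561 to 1.19 Mb) ends inside the gene in 6 of 8 libraries, Kcnip4 is entered from either side, and the LAD at Kcnt2 comes from downstream and stops 139 kb or more from the start site.

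Kcnt2, a sodium-activated channel gene of 366 kb on chromosome 1, never had its start site in a LAD but was entered from its 3′ end. The share in LADs was 62.1% and 20.8% in the CT6 mice, 45.7% in CT12 replicate 1, 29.3% in CT18 replicate 1, 13.7% in CT24 replicate 2, and 0 in the other 9 libraries. In those 9 libraries the nearest LAD lay 422 kb or more from the start site. Among the Kcn genes whose start site was never in a LAD, that of Kcnt2 was the closest to one, with a median distance of 0.425 Mb.

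The remaining members were in LADs in 1 to 3 libraries. Kcnk9, an acid-sensitive leak channel gene on chromosome 15, was inside LADs of 3.15 to 3.41 Mb in NS replicate 1, CT0 replicate 1 and CT30 replicate 1, the libraries of 61, 47 and 31 kb bin size. In CT18 replicate 2 the LAD ended 6.34 kb short of its start site and held 86% of the gene. Kcnk9 was the only one of the 9 Kcn genes with the start site in LADs in 3 or more libraries for which none of these was among the 7 of smallest bin size, 4 to 14 kb. In the other 10 libraries its distance was 138 to 1200 kb.

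Kcnmb1, an accessory subunit of the smooth muscle calcium-activated channel, lies inside Kcnip1 on the other strand, and all 10629 bp of it are shared. Both were in a LAD in CT0 replicate 1 and CT18 replicate 2 and in the same state in all 14 libraries, so they count as 1 locus. Kcnj16 and Kcnj2 (the latter sets the resting potential of heart and muscle) start 98.1 kb apart on chromosome 11 and were both in a LAD in CT18 replicate 1 and CT24 replicate 1 only. Kcnq5, of the M-current family, was in a LAD in CT12 replicate 2 only, with 76.6% of its body. Kcnn2, a small-conductance calcium-activated channel gene, was in a LAD in CT18 replicate 2 only, with 24.7% of its body. None of these 6 genes was in a LAD in both mice of a time point.

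By class, 7 of 39 voltage-gated alpha genes (17.9%) were in a LAD in at least 1 library, beside 17.1% of all genes. In 8 or more libraries it was 6 of 39, a higher share than the 7.48% of all genes. They were Kcna4 among 8 Kcna genes, Kcnc2 among 4 Kcnc genes and Kcnd2 among 2 Kcnd genes. Also among them were Kcnh7 and Kcnh8 of 8 Kcnh genes and Kcnv1 of 10 silent modifiers. Across libraries the share of the 39 voltage-gated alpha genes with the start site in a LAD was 2.56% at the lowest (NS replicate 1), 14.1% at the median and 17.9% at the highest. The share of all genes ran from 4.18% to 10.8% over the libraries. In the 7 libraries of largest bin size the median was 7.69%, beside 6.31% for all genes. In the 7 of smallest bin size it was 15.4%, beside 9.48%. Of 15 inward rectifiers 3 (20%) were in a LAD in any library and 1, Kcnj3, in 8 or more. Of 14 Kcnk genes 1 was in any, of 8 ion-activated alpha genes 1 (12.5%) and of 16 accessory genes 3 (18.8%), and none of these in 8 or more. Shares in at least 1 library were thus near that of all genes in most classes. In 8 or more libraries that of voltage-gated alpha genes was higher, and no difference between classes was tested. Both Kcnb genes, all 3 Kcnab and all 4 Kcne genes stayed outside LADs. Each subfamily was thus represented in LADs by 1 or 2 of its members in 8 or more libraries, or by none.

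Close relatives were in different places. The other 3 subunits of G-protein-gated inward rectifiers, Kcnj5, Kcnj6 and Kcnj9, were never in a LAD and had median distances of 0.865, 8 and 22.3 Mb, while Kcnj3 was inside in 13 libraries. The other 7 Kcna genes had median distances of 2.18 Mb (Kcna7) to 3.69 Mb (Kcna3). The other Kcnv gene, Kcnv2, lay 6.07 Mb from a LAD at the median and 0.289 Mb in its closest library.

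**Figure D3:**
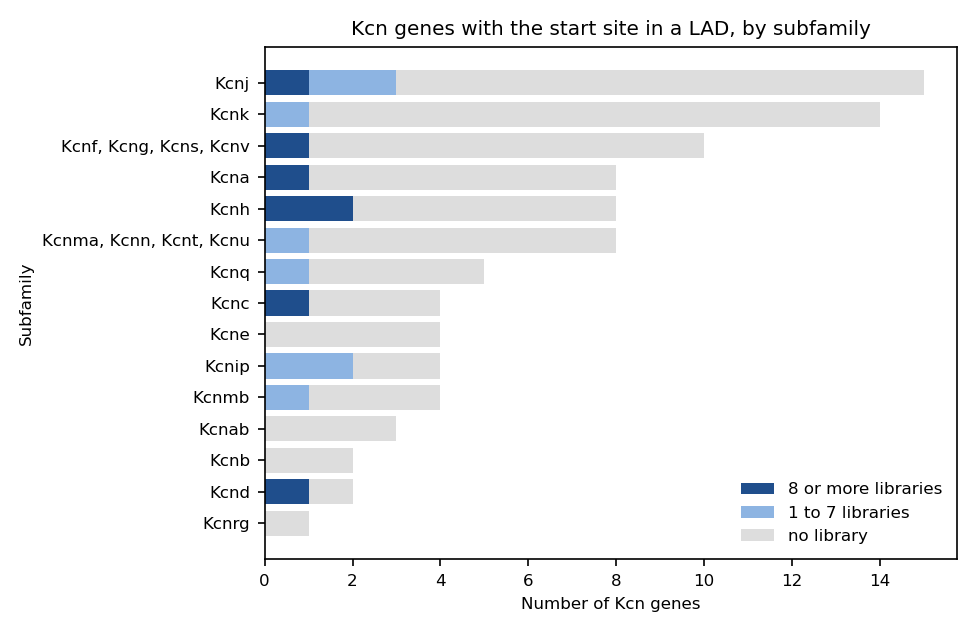
Number of Kcn genes in each subfamily (bars), divided by the number of libraries in which the start site is in a LAD. Of 8 Kcnh genes 2 are in the class of 8 or more libraries, and Kcnb, Kcnab, Kcne and Kcnrg have no gene in a LAD.

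Of the 15 Kcn genes found in LADs, 9 measured 100 kb or more and 4 (Kcna4, Kcnv1, Kcnmb1 and Kcnj2) under 25 kb. Their median length was 196 kb, against 26.4 kb for the 77 others, whereas over all genes those found in a LAD in at least 1 library had a median length of 9.01 kb and all genes 17.6 kb. Of the 23 Kcn genes of 100 kb or more, 9 (39.1%) were in a LAD in at least 1 library, beside 19.5% of all 2372 genes of that length. In 8 or more libraries it was 5 of 23 (21.7%), beside 6.45%. Of the 42 Kcn genes under 25 kb, 4 (9.52%) were in a LAD in at least 1 library, beside 20.2% of all genes of that length. Of the 27 genes of 25 to 100 kb, 2 (7.41%) were, beside 9.84%. The Kcn genes thus ran above other genes of their length when long and below when short, and the difference was not tested, since the genes of a LAD share its state.

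By library, the number of long Kcn genes in LADs was 1 and 6 of 23 in the NS mice, 2 and 6 at CT0, 4 and 5 at CT6, 5 and 7 at CT12, 5 and 8 at CT18, 6 and 5 at CT24, and 2 and 2 at CT30. The share of long Kcn genes was above that of all long genes in 13 of 14 libraries, with a median of 21.7% against 7.67%, and below it in NS replicate 1 (4.35% against 5.48%). In the 7 libraries of largest bin size the median was 8.7% for long Kcn genes and 7.38% for all long genes, and in the 7 of smallest bin size 26.1% and 8.18%, so the gap was wider in the latter. With the limit for long genes set at 200 kb, 7 of 18 Kcn genes (38.9%) were in a LAD in at least 1 library beside 28.3% of all 953 such genes, and the Kcn share was the higher in 8 of 14 libraries. The gap to genes of like length was therefore narrower at 200 kb than at 100 kb.

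**Figure D4:**
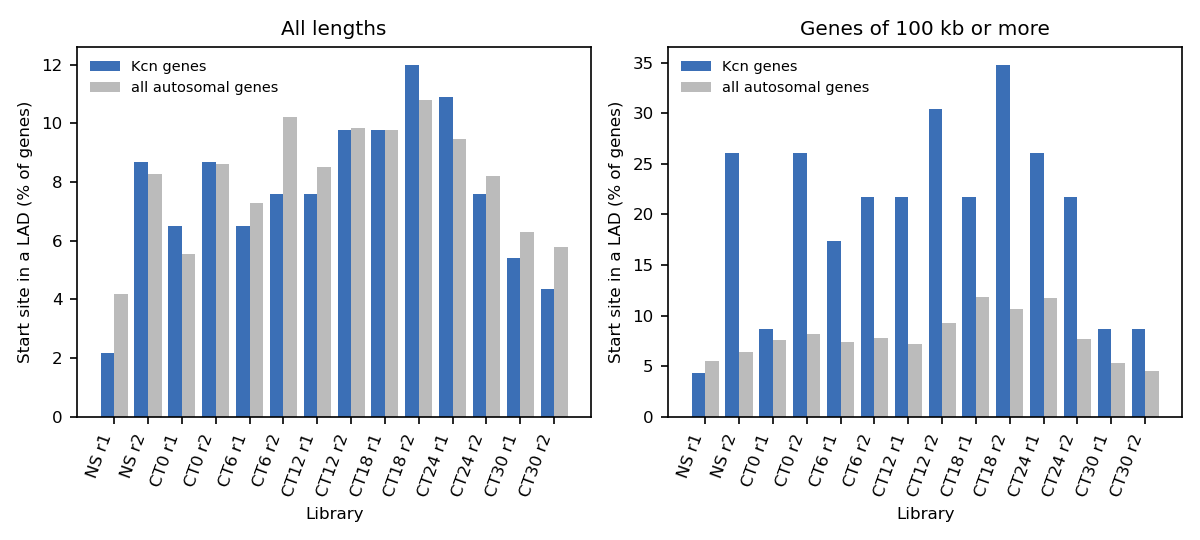
Share of genes with the start site in a LAD (%) in each library, for Kcn genes and all autosomal protein-coding genes, over all lengths (left) and for genes of 100 kb or more (right). Over all lengths both bars run close together, while for long genes the Kcn bar is the higher in all libraries other than NS replicate 1.

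Of the other Kcn genes of 200 kb or more, 10 had no base in a LAD in any library. These were Kcnma1 (725 kb), the pore of the large-conductance calcium-activated channel, with a median distance of 14 Mb, and Kcnq1 (321 kb), a cardiac and epithelial channel, at 34.3 Mb, besides Kcnh1 (42.1 Mb), Kcnj6 (8 Mb), Kcnh5 (6.4 Mb), Kcnmb2 (5.62 Mb), Kcnd3 (5.28 Mb), Kcnab1 (5.19 Mb), Kcnq3 (3.31 Mb) and Kcnb2 (1.99 Mb). Kcnb2, Kcnq3 and Kcnmb2 came within 0.173, 0.527 and 0.757 Mb of a LAD in their closest library. Kcn genes of 200 kb or more thus ranged from 12 libraries with the start site in a LAD (Kcnd2) to a median distance of 42.1 Mb (Kcnh1).

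In at least 1 library 9 of 92 (9.78%) were partly in a LAD, beside 3.06% of all genes. In all, 28 LAD borders fell inside 9 Kcn genes, 27 in introns and 1 in an exon of Kcnh7. Kcnd2 held 7 of them, Kcnh7 6, Kcnt2 5, Kcnip4 4 and Kcnc2 2. The 5 genes with more than 1 border measured 196 to 1135 kb, and no comparison with other genes at equal length was made.

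Of the 77 Kcn genes whose start site was never in a LAD, 18 (23.4%) had it within 1 Mb of one in at least 1 library. Of all such genes 28.7% did. The median of their median distances was 5.28 Mb, against 4.65 Mb for all genes never in a LAD. After Kcnt2 the nearest by median distance were Kcnn4, an intermediate-conductance calcium-activated channel gene (0.432 Mb), Kcnj1, a renal potassium channel gene (0.837 Mb), Kcnj5 (0.865 Mb), Kcnk10 (0.893 Mb) and Kcng3 (0.916 Mb). These distances were close to those of other genes outside LADs.

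The number of Kcn genes with the start site in a LAD was 2 and 8 in the NS mice, 6 and 8 at CT0, 6 and 7 at CT6, 7 and 9 at CT12, 9 and 11 at CT18, 10 and 7 at CT24, and 5 and 4 at CT30. The replicates of a time point differed by an SD of 2.05 genes. The share of all genes moved from 4.18% in NS replicate 1 to 10.8% in CT18 replicate 2, so the counts of Kcn genes and of all genes varied together over the libraries. Both CT18 mice lay above both CT0, CT6 and CT30 mice, and both CT30 mice lay below all other CT mice, but 2 mice against 2 cannot give an exact two-sided permutation p below 0.333, and no test was made.

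The mice of a time point could be in different states. At NS and at CT0 8 Kcn genes differed between the mice (8.7% of the 92, beside 7.56% and 6.3% of all genes), at CT18 6 (6.52%, beside 5.01%), and at the other time points fewer: 1 at CT6 (1.09%, beside 5.05%), 2 at CT12 (2.17%, beside 3.37%), 3 at CT24 (3.26%, beside 3.91%) and 1 at CT30 (1.09%, beside 2.97%). The share of Kcn genes was thus above that of all genes at 3 time points and below it at 4. At NS only Kcnh8 was in a LAD in both mice, and at CT0 only Kcnj3, Kcna4 and Kcnv1. At CT12, CT18 and CT24 7 Kcn genes were in a LAD in both mice, and Kcnj3, Kcna4, Kcnd2, Kcnv1 and Kcnh8 were among them each time. At CT30 the 4 in both mice were Kcnj3, Kcna4, Kcnd2 and Kcnv1.

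To ask which genes changed between the time before entrainment and CT0, genes were counted that were outside LADs in both mice and then inside in both, or the reverse. From NS to CT0 no Kcn gene did either, beside 0.346% of all genes that moved in and 0.38% that moved out. The states of the NS mice differed for 8 Kcn genes (8.7%, beside 7.56% of all genes). A gene in different states in the NS mice could not pass this rule. The NS and CT0 samples thus show no Kcn gene whose state separated the time points.

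Between consecutive CTs, Kcnip4 was outside in both CT6 mice and inside in both CT12 mice (1.09% of Kcn genes, beside 0.538% of all genes). At CT6 the LAD already covered 78.4% and 56.1% of the gene and stopped 245 and 498 kb from the start site. Counted by the start of any annotated transcript, Kcnip4 was in a LAD in 10 libraries in place of 7, both CT6 mice included. Its move from CT6 to CT12 thus rests on the start site used. From CT24 to CT30 Kcnh7, Kcnc2 and Kcnh8 were inside in both mice and then outside in both (3.26% of Kcn genes, beside 2.22% of all genes). Kcnc2 and Kcnh8 also went from inside in both mice at CT6 to outside in both at CT30 (2.17%, beside 0.87%). No Kcn gene passed the rule from CT0 to CT6, where 1.04% of all genes moved in and 0.0913% out, from CT12 to CT18 (0.457% and 0.178%) or from CT18 to CT24 (0.231% and 0.476%). The same held from CT0 to CT12 (0.346% and 0.12%), from CT12 to CT24 (0.433% and 0.548%) and from CT0 to CT24 (0.567% and 0.0961%). In the contrasts with a change, no Kcn gene moved the other way, beside 0.442% of all genes that moved out from CT6 to CT12, 0.509% that moved in from CT24 to CT30 and 0.159% that moved in from CT6 to CT30. Kcn genes that passed the rule were therefore Kcnip4 inward at CT12 and 3 genes outward at CT30, where all genes also had their highest outward share.

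Bin size moved with these counts. It was 14 and 18 kb in the CT24 mice and 31 and 46 kb in the CT30 mice. In the CT6 mice it was 35 and 11 kb, and in the CT12 mice 5 and 10 kb. In both comparisons, CT24 with CT30 and CT6 with CT12, bin size cannot be told apart from time. Kcnh7 was in a LAD in all 8 libraries of 4 to 18 kb and in none of the 6 libraries of 19 to 61 kb. Of the 1208 genes in LADs in 4 to 10 libraries, 16% were split by bin size in this way, and of the 3 Kcn genes in that range 1, Kcnh7, was. Kcnj3, Kcna4, Kcnv1 and Kcnd2 were outside LADs only in the libraries of largest bin size, 61 kb for the first 3 and 47 and 61 kb for Kcnd2. With Kcnh7 these made 5 of the 15 Kcn genes in LADs in 1 to 13 libraries. Over all 3375 such genes, 15.6% were in LADs only below some bin size, and the difference was not tested. Kcnip4 had its start site in a LAD in libraries of 4 to 19 kb and outside in libraries of 11 to 61 kb. Kcnh8 was in a LAD at 35 and 61 kb and outside at 31, 46 and 47 kb. Kcnc2 was in a LAD at 35 kb and outside at 5 and 31 kb. In the 5 kb library, CT12 replicate 1, 90.4% of Kcnc2 was in the LAD, whose border lay 18.9 kb from the start site. The part of bin size in the counts was not tested.

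**Figure D5:**
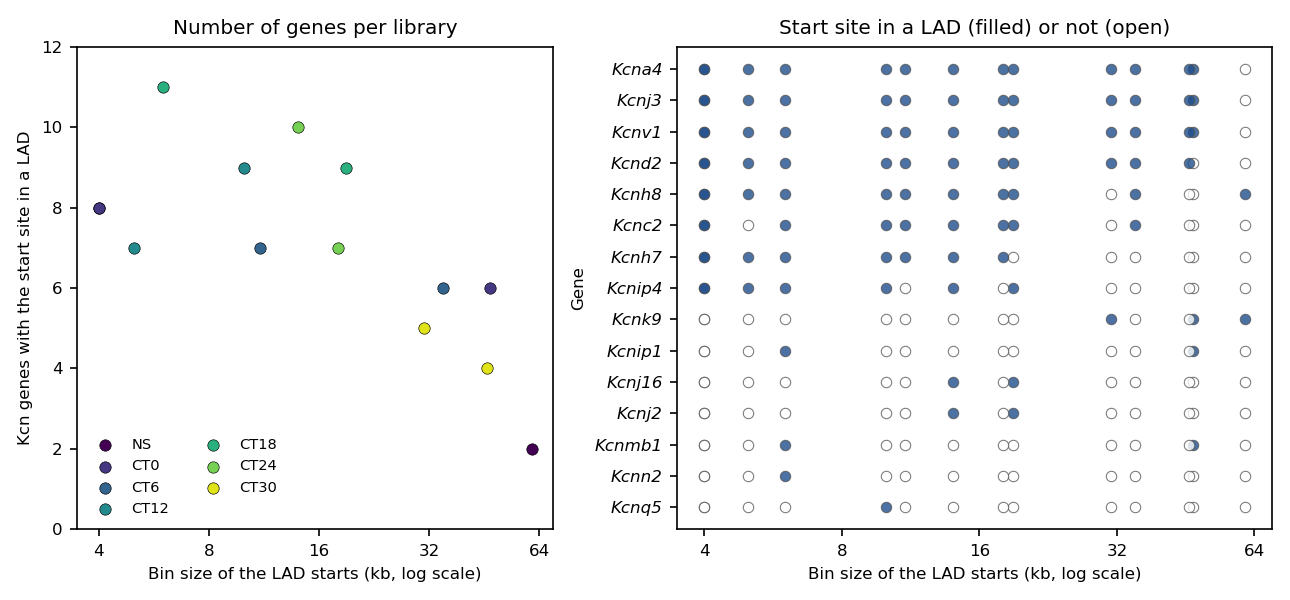
Left, number of Kcn genes with the start site in a LAD against the bin size of the library (kb, log scale), coloured by time point, with NS replicate 2 and CT0 replicate 2 on the same point at 4 kb and 8 genes. Right, state of the 15 Kcn genes in each library by bin size, with Kcnh7 inside LADs up to 18 kb and outside from 19 kb.

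To ask whether a gene's place in LADs differed between circadian times, the share of its body in LADs was tested over CT0 to CT30. The F ratio of the 6 CTs was set against its values under all 10395 ways of forming 6 pairs from the 12 libraries (exact permutation). Over the 3210 genes whose share was not the same in all 12 libraries, 1.43% (46 genes) had an unadjusted p under 0.05 and 0 passed after Benjamini-Hochberg adjustment, the smallest adjusted p of the exact permutation test being 1. Of the 92 Kcn genes 13 could be tested, as 76 were at 0 in every CT library and 3 (Kcnj3, Kcna4 and Kcnv1) were wholly in LADs in every CT library. Only 5 of the 13, Kcnc2, Kcnd2, Kcnh7, Kcnip4 and Kcnt2, could have reached a p under 0.05 given their values, as could 850 of the 3210 genes, of which 46 (5.41%) did. None of the 5 had an unadjusted p under 0.05.

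The smallest p among Kcn genes was that of Kcnh7 (F ratio 2.04, exact permutation p = 0.175). For Kcnc2 the exact permutation p was 0.273, for Kcnd2 0.283, for Kcnip4 0.342 and for Kcnt2 0.384. For Kcnh8 it was 0.273, the smallest that its values allow. For the other 7 genes the test says nothing: Kcnk9, Kcnip1, Kcnmb1, Kcnj16 and Kcnj2, in LADs in 2 or 3 CT libraries, could not go below an exact permutation p of 0.0909, and Kcnq5 and Kcnn2, in 1 CT library each, not below 1. A difference between CTs larger than the spread between mice was thus not detected for the 5 Kcn genes that could be called. Without CT0 replicate 2, Kcnc2 and Kcnh8 had an exact permutation p of 0.0303 and Kcnd2 of 0.039, unadjusted, beside 3.61% of all genes tested with a p under 0.05. With residuals on log2 bin size in place of the share, the permutation p was 0.0149 for Kcnd2, 0.0213 for Kcnh7 and 0.0481 for Kcnh8. It is unadjusted and approximate, since residuals of a fit are not exchangeable, and 18.4% of all genes had such a p under 0.05. In both cases 0 genes passed adjustment. These p-values set differences between CTs against those between mice of 1 study, and the mice of a CT also differed in bin size.

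Other ion channel genes were set beside the Kcn genes by lists taken from their symbols. In a list of 13 potassium channel subunit genes without a Kcn symbol, Dpp10 and Dpp6 encode partners of Kcnd subunits. Their start sites were in a LAD in 11 and 3 libraries. Most genes of that list, among them Abcc8, Abcc9, Hcn2, Hcn3 and Hcn4, were in a LAD in no library. Over all genes 17.1% were in a LAD in at least 1 library. Of 14 genes listed as voltage-gated sodium channel genes, 5 (35.7%) were in a LAD in at least 1 library, beside 17.1% of all genes. Scn7a and Scn9a were in a LAD in 8 libraries, Scn1a in 7, Scn3b in 3 and Scn2a in 1. Genes of a LAD share its state, so these 5 need not be separate loci, and the difference was not tested. Of 25 voltage-gated calcium channel genes 1 (4%) was, Cacna2d1, in 9 libraries, beside the same 17.1%. None of the genes named in these lists was in a LAD in all 14 libraries or had an unadjusted p under 0.05 in the exact permutation test between CTs.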

How the data were processed

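LMNB1 ChIP-seq libraries from the livers of 14 mice were used. The authors mapped reads to mm10 with Bowtie (Bowtie2 2.25.0 in the submitters' processing notes), removed duplicates with Picard, brought ChIP and input to the same number of reads on each chromosome, and called LADs per mouse with EDD, with GapPenalty and BinSize averaged over repeated runs. The deposited values are LAD start and end positions, without score or count. Depth is not given in the sources used here, so the spread between mice is the only measure of precision. Groups follow the titles, also in 4 libraries whose deposited name carries another replicate number. The 7 input and 21 RNA-seq libraries were not used here.

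Genes were those of GENCODE vM21 (GRCm38.p6). A start site was in a LAD where the first base of the gene lay in an interval, and the body share is the percentage of bases, introns included, in LADs. Distances run from the start site to the nearest LAD border. Bin size is the largest number of kb dividing the LAD starts that lie on whole kb. Python 3.11.15, NumPy 2.4.6 and pandas 2.3.3 were used. The test between CTs (F ratio, exact permutation, Benjamini-Hochberg over all genes tested) was tested on simulated data. No filter was set on LAD size. Named genes were those in LADs in 12 or more libraries, those of 200 kb or more, the 12 with the smallest p (ties by the larger range), and any with opposite states in both NS and both CT0 mice. Others were named after their values were seen. The genes and lists were chosen with earlier results of these data known. Alternatives covered the definition of the state, LAD size and merging, pore-forming genes alone, single replicates, bin size, distance and a replicate block. Replicate numbers were taken not to pair mice: the labels give only the number, and the correlation of deviations was over 0.1 in 3 of 15 pairs of time points. A result for 1 gene of another list is not reported here.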

Additional observations from a re-analysis of the deposited data

How the results depend on the processing

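The count of Kcn genes in LADs was 15 in at least 1 library and 7 in 8 or more. Under every alternative definition of the state, LAD size and merging these counts stayed within 1.5 times, at 13 to 16 and 6 to 8. Among the 76 pore-forming genes alone they were 12 and 7. Over all 92 Kcn genes, leaving out 1 library gave 14 to 15 and 6 to 7. The number in LADs in all libraries was then 0 to 3 (3 without NS replicate 1). In the 7 libraries of smallest bin size, an alternative chosen after seeing the data, 6 Kcn genes were in LADs in all. The shares of all genes were not counted for these settings. In the 7 of largest bin size the median share of voltage-gated alpha genes was 7.69% in place of 14.1%, and that of long Kcn genes 8.7% in place of 21.7%. Leaving out 1 library gave 12.8% to 15.4% for the first, and the second stayed at 21.7% as did the 7.61% of all Kcn genes. With LADs of at least 1 Mb only, Kcnh7 was in LADs in 2 libraries in place of 8, Kcnip1 and Kcnmb1 in 1, and Kcnq5 and Kcnn2 in none.

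The mean number of Kcn genes differed by 1 between CT12 and CT0 (CT12 minus CT0), by 4 in the intersects of both mice and by -2 in their unions. CT24 minus CT12 was 0.5, 3 with replicate 1 alone and -2 with replicate 2 alone. CT0 minus NS was 2, at 0 with replicate 2 alone and above 0 in the other alternatives run, and CT30 minus CT24 was -4 and below 0 in all that were run.

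The number of genes with an unadjusted exact permutation p under 0.05 between CTs was 46 of 3210 tested (1.43%). It was 1091 of 20384 (5.35%) with log10 distance to the nearest LAD and 25 of 2748 (0.91%) with LADs of at least 1 Mb. It was 26 of 3498 (0.743%) with NS as the 7th time point and 12 of 3210 (0.374%) with a replicate block. With residuals on log2 bin size it was 590 of 3210 (18.4%). Leaving out 1 library gave 40 to 134: 78 without CT0 replicate 1, 114 without CT0 replicate 2, 76 without CT6 replicate 1, 134 without CT6 replicate 2, 70 without CT12 replicate 1 or CT24 replicate 2, and 74 and 88 without CT18 replicates 1 and 2. Kcn genes with such an exact permutation p numbered 1 with log10 distance (Kcnmb4, p = 0.0288), 3 with residuals on bin size (Kcnd2 0.0149, Kcnh7 0.0213 and Kcnh8 0.0481), 0 with the replicate block and 0 to 3 with 1 library left out (3 without CT0 replicate 2). With log10 distance 89 Kcn genes were tested, and 5.35% of all genes tested had an unadjusted exact permutation p under 0.05. No gene passed adjustment under any alternative that was run. The smallest adjusted p of these permutation tests was 0.162, with residuals on bin size. For residuals the permutation p is approximate and not exact, since residuals of a fit are not exchangeable. The cause of these shifts was not tested. A library left out leaves its time point with 1 mouse, which is assumed to vary like the others. With 2 mice per time point and no depth, small shifts of a border cannot be told from counting error.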
